A study of Mus musculus with 16 samples.

Results

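Myosin-specific CD4+ T cells (TCRM) were compared with the recipients' own CD4+ T cells (ENDO) from lymph nodes of the mediastinum, the nodes that drain the heart, 7 days after myocardial infarction. The groups were taken from the array titles and hold 5 TCRM and 5 ENDO arrays, 10 of the 16 arrays of the series. TCRM cells were Thy1.1 cells of T cell receptor transgenic donors, transferred 1 day before the operation into Thy1.2 recipients, and both populations were sorted from the same male mice of Balb/c background, 8 to 12 weeks old, at a purity above 98%. Infarction was produced by ligating the left anterior descending coronary artery. The other 6 arrays, 3 of each population, came from sham-operated mice (thoracotomy, no ligation) and are used here only to set the difference between populations beside that without infarction. The recipients keep their own lymphocytes, so ENDO cells are a mixture of many receptors while TCRM cells carry 1 transgenic receptor. The cells also differ in having been transferred, and this cannot be told apart from their specificity.

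The transgenic receptor recognises cardiac myosin, a protein that injured heart muscle releases and that is presented to T cells in the draining lymph node. A helper T cell that meets its antigen there can become a follicular helper cell, which carries PD-1 and secretes interleukin 21 and interleukin 4 to help B cells, or an effector cell, which carries CXCR3 and leaves for the tissue. Receptors such as PD-1 and TIGIT and the ectoenzyme CD73 are induced on activated cells and restrain them.

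Each array gave a log2 signal for 41345 transcript clusters (probe groups that represent a gene or part of one). The populations had been normalized separately, so each cluster was given its percentile rank within its array (0 lowest, 100 highest), and differences are in percentile points, TCRM minus ENDO. Ranks do not change when an array is rescaled, but population and any summary of probes made within a population cannot be told apart. The 5 TCRM arrays resembled each other more than the 5 ENDO arrays did, with a median SD of ranks of 2.34 against 4.37 points. The median log2 signal lay between 5.37 and 5.41 on TCRM and between 5.61 and 5.79 on ENDO infarction arrays, and precision is limited by how many arrays there are. The source names of both arrays numbered 5 say sham, against their titles, which were followed. Symbols came from the authors' tables of infarction against sham, so every named gene had been selected on these arrays, and most for being higher in TCRM cells after infarction. Cd4, the Cd3 genes and the other defining T cell genes except Trat1 were not analysed here, so the labelled cell type was checked against 1 of 18 identity genes, whose ranks were at least 79.5 on all 10 arrays.

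The populations differed in rank across the transcriptome. After clusters with a mean rank under 30 were left out, 29739 were tested with limma and 15845 passed at an adjusted p under 0.05 (53.3%), 8585 higher (28.9%) and 7260 lower (24.4%) in TCRM cells. With a difference of at least 10 points as well, 9492 remained (31.9%), 5144 higher (17.3%) and 4348 lower (14.6%). The median difference over all tested clusters was 0.522 points and the quartiles were -6.19 and 7.74. The 5 TCRM and 5 ENDO arrays did not overlap for 12884 clusters (43.3%). A call alone therefore says little, and sizes are read against this spread. Differences of at least 30 points that passed were found for 555 clusters on the higher side (1.87%) and for 994 on the lower (3.34%). Of the 351 clusters at least 50 points lower and the 55 at least 50 points higher, most had no symbol and are not named here.

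Much of the difference was present without infarction. Of the 9492 clusters, 9321 (98.2%) had the same sign between the 3 TCRM and 3 ENDO sham arrays, against 85.4% of all tested clusters, and 7741 (81.6%) differed there by at least 10 points the same way. The sham arrays are separate from the infarction arrays but share with them the separate normalization of the populations. Sham differences below are given as values with no test of their own.

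Of 468 clusters in the authors' tables, 270 had exactly 1 symbol and 234 of these were tested. Among them 123 were higher, 48 were lower and 63 did not pass. The 143 tested clusters that the TCRM table lists as higher after infarction held 117 higher and 6 lower ones, with a median difference of 21.1 points after infarction and 5.41 after sham operation. That high count follows in part from their selection as high on the same TCRM arrays. The 47 tested clusters listed as lower after infarction in ENDO cells held no higher and 25 lower ones, with medians of -11.3 and -24.9 points, and 22 did not pass. Their selection as higher on the ENDO sham than on the ENDO infarction arrays favours the more negative sham median. Over all tested clusters 28.9% were higher and 24.4% lower.

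**Figure D1:**
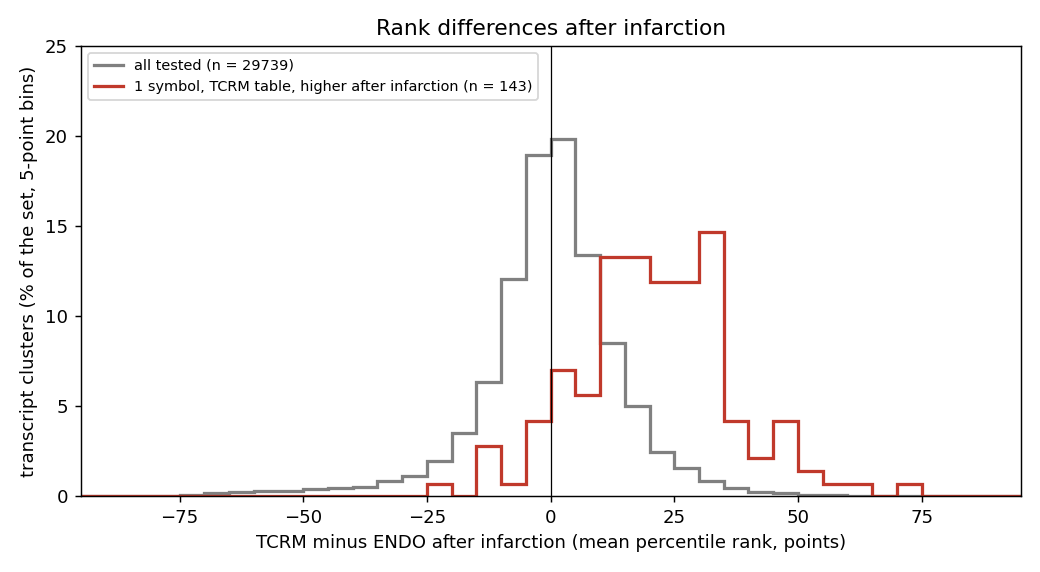
Histogram of the difference in mean percentile rank, TCRM minus ENDO infarction arrays, in bins of 5 points, as a percent of each set. The grey line holds all 29739 tested clusters, centred near 0, and the red line the 143 clusters with 1 symbol that the authors list as rises of TCRM cells after infarction, with a median of 21.1 points.

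Most of the named secreted factors ranked higher in TCRM cells. Of 41 listed cytokine, chemokine and growth factor genes 8 were named, and 7 of these were higher and none lower, with a median of 26.3 points after infarction and 4.29 after sham operation. All 8 come from the TCRM table's rises, of which 117 of 143 tested clusters with 1 symbol were higher. Over all tested clusters 28.9% were higher. The count is therefore not a result about secreted factors.

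Il21 (interleukin 21, a helper T cell cytokine that acts on B cells) ranked 90.9, 88.2, 78.3, 88.1 and 85.03 on TCRM infarction arrays 1 to 5. On ENDO infarction arrays 1 to 5 it ranked 36.0, 29.3, 28.2, 22.7 and 27.6. The groups were far apart, with the lowest TCRM rank more than 40 points above the highest ENDO rank. The means were 86.1 ± 4.84 (SD, n = 5) and 28.8 ± 4.78 (SD, n = 5), a difference of 57.3 ± 2.87 points (SE, adjusted p = 1.30e-06). After sham operation its ranks were 52.7, 23.1 and 34.4 in TCRM and 26.5, 38.1 and 27.2 in ENDO cells, which overlap. In sorted bulk cells, more cells that express a gene and more RNA per cell cannot be told apart.

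Il4 (interleukin 4, a cytokine of follicular helper and Th2 cells) ranked 82.3, 81.1, 79.1, 83.9 and 78.5 on the TCRM and 60.5, 32.1, 43.5, 54.1 and 51.4 on the ENDO infarction arrays. The 5 TCRM arrays were tightly grouped above an ENDO group that spread widely, and the difference was 32.7 ± 4.62 points (SE, adjusted p = 0.000336) against 8.66 after sham operation. Promoters are shown for Il21 and Il4, the 2 interleukins among the named secreted products, from 250 bases before to 50 after the transcript start, from RefSeq on GRCm38.p6, minus strand, written 5′ to 3′. Il21 lies at chr3:37232587-37232886, and Il4 has starts at chr11:53618616-53618915 and chr11:53617289-53617588. Capitals mark GGAAA, the core letters bound by NFAT, and TGCTGA, the core of the sites that Maf proteins bind, on either strand, so that TTTCC and TCAGCA are marked too.
Il21 promoter: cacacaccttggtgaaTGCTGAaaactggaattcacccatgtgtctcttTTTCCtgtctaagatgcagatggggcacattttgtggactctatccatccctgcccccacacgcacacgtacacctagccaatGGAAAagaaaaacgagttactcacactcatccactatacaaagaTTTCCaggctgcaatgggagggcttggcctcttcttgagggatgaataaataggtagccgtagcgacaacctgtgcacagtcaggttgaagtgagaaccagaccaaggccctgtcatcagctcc
Il4 promoter, upstream start: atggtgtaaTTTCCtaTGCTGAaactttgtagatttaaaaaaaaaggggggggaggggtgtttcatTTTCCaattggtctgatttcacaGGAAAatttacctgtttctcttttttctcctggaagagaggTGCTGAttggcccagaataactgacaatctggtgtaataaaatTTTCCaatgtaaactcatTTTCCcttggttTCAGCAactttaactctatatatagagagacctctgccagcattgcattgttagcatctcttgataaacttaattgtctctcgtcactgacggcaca
Il4 promoter, downstream start: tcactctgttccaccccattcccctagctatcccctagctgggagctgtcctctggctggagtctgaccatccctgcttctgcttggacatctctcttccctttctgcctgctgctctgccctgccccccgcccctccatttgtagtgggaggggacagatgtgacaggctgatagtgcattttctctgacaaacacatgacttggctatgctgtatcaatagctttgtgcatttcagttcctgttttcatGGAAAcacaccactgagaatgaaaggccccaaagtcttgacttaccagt

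The Il21 window holds 3 GGAAA and 1 TGCTGA. The upstream Il4 window holds 5 and 3, and the downstream one 1 and 0. GGAAA occurs in 61.3% and TGCTGA in 19.5% of 32851 RefSeq promoter windows of this length, and TGAGTCA (the AP-1 letters, in 5.20%) occurs in none of the 3. These are matches of letters, not measured binding.

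Growth factors were among the other secreted products. Tgfb3 (transforming growth factor beta 3) ranked 78.4, 77.6, 67.3, 66.9 and 65.6 on the TCRM and 41.1, 42.2, 38.4, 39.8 and 36.9 on the ENDO infarction arrays. ENDO ranks stayed close together and the TCRM arrays fell into 2 higher and 3 lower ones, all above the ENDO arrays. The difference was 31.5 ± 2.80 points (SE, adjusted p = 2.32e-05), and the sham difference was -2.27 points.

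Csf1 (the macrophage growth factor M-CSF) ranked 93.3, 90.9, 87.7, 93.1 and 86.0 on the TCRM and 76.9, 76.2, 71.0, 68.7 and 62.8 on the ENDO infarction arrays. It ranked at 62.8 or above on all of these arrays and the groups did not overlap, with a difference of 19.1 ± 2.80 points (SE, adjusted p = 0.000425) and a sham difference of -1.79. Angptl2 (a secreted angiopoietin-like protein) was higher by 37.4 ± 3.66 points (SE) and by 18.7 after sham operation. Penk (proenkephalin, the precursor of opioid peptides) was higher by 21.1 ± 4.97 and Tnfsf8 (CD30 ligand) by 11.1 ± 1.38 points (SE), with sham differences of 4.13 and 4.45. Ccl5 (a chemokine of effector cells) was the member that did not pass, at -1.13 ± 2.20 points (SE, adjusted p = 0.692).

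Of the 24 genes on the repair and matrix list 5 were named, all rises of the TCRM table. Among such rises 117 of 143 tested clusters with 1 symbol were higher, against 28.9% of all tested clusters. Higher were 4 of the 5, namely Angptl2, Csf1, Penk and Tgfb3. The fifth, Timp2 (an inhibitor of matrix metalloproteinases), differed by -0.75 ± 1.56 points (SE, adjusted p = 0.71) with overlapping groups, while its sham ranks of 77.4, 75.2 and 74.0 in TCRM cells lay below 84.6, 86.2 and 86.7 in ENDO cells.

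Genes of follicular helper cells were higher in each named case. Of 25 listed genes 7 were named, and all 7 were at least 10 points higher, with a median of 32.7 points and 13.8 after sham operation. The TCRM table lists all 7 as higher after infarction, so their direction is not independent evidence. Among such rises 110 of 143 tested clusters with 1 symbol were called at least 10 points higher, against 17.3% of all tested clusters. The 7 are Il21, Il4, Angptl2, Pdcd1, Maf, S1pr2 and Gpm6b. Bcl6, Cxcr5 and Icos are also on the list and were not named.

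Pdcd1 (the inhibitory receptor PD-1, high on follicular helper cells) ranked 97.8, 98.4, 96.8, 97.0 and 97.0 on the TCRM infarction arrays. Its ENDO infarction ranks were 74.4, 64.3, 68.2, 59.9 and 54.6. TCRM ranks were near the top of each array and every ENDO array was lower by more than 20 points, with a difference of 33.1 ± 3.20 (SE, adjusted p = 3.70e-05). The sham ranks of 93.9, 86.8 and 81.9 in TCRM and 52.7, 53.2 and 61.3 in ENDO cells were apart by 31.8 points, about as far.

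Maf (a transcription factor that drives Il4 and Il21) ranked 96.6, 96.1, 93.8, 95.5 and 93.9 on the TCRM and 77.4, 73.8, 72.8, 67.3 and 55.3 on the ENDO infarction arrays. The groups did not overlap and the difference was 25.8 ± 3.65 points (SE, adjusted p = 0.000335), against 13.8 after sham operation. S1pr2 (a sphingosine-1-phosphate receptor that holds cells in germinal centres) was higher by 20.5 ± 1.97 points (SE) and by 15.1 after sham operation. Gpm6b (a membrane glycoprotein of the proteolipid family) was higher by 27.8 ± 2.60 points (SE), while after sham operation the difference was -11.5, where 1 of 3 TCRM arrays ranked 28.0 and the others 65.1 and 62.9.

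All 5 named genes of 26 on the list for inhibitory receptors, anergy and exhaustion were higher, with a median of 26.3 points and 13.8 after sham operation. All 5 are rises of the TCRM table, so their direction is not independent evidence. Among such rises 117 of 143 tested clusters with 1 symbol were higher, against 28.9% of all tested clusters. Tigit (an inhibitory receptor for poliovirus receptor proteins) ranked 96.7, 94.9, 93.5, 94.9 and 93.8 on the TCRM and 78.3, 56.6, 73.0, 59.3 and 59.3 on the ENDO infarction arrays. ENDO array 1 came nearest to the TCRM arrays and none overlapped, with a difference of 29.5 ± 4.05 points (SE, adjusted p = 0.000287) and 13.3 after sham operation. Nrp1 (neuropilin 1, a co-receptor for semaphorins also carried by regulatory T cells) was higher by 26.3 ± 3.39 points (SE) and by 20.4 after sham operation.

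Cd22, a sialic acid binding inhibitory receptor best known from B cells, was higher by 23.8 ± 1.21 points (SE), and by 13.8 after sham operation. It was the 1 named gene of 16 on the B cell list, and its ranks of 75.9 to 79.2 on TCRM and 51.0 to 56.0 on ENDO infarction arrays varied little within each group. The other B cell markers were not analysed here, and the part of B cell RNA in this value was not tested. Nkg7 (a granule protein), the 1 named gene of 15 on the CD8 and NK cell list, was higher by 7.08 ± 1.48 points (SE), and none of the 20 myeloid or 12 erythroid and platelet markers was named. On the regulatory T cell list 4 of 29 genes were named: Tigit, Nrp1 and Nt5e were higher and Prdm1 did not pass. All 4 are rises of the TCRM table, and 28.9% of all tested clusters were higher.

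Ectoenzymes that consume extracellular nucleotides and NAD moved in both directions, with 3 of 4 named genes higher and 1 lower. The TCRM table lists the 3 as rises and the 1 as a fall after infarction, so these directions follow in part from selection. Over all tested clusters 28.9% were higher and 24.4% lower. Nt5e (CD73, which makes adenosine from AMP) ranked 94.8, 96.3, 92.0, 93.8 and 92.4 on the TCRM and 76.2, 66.8, 76.9, 70.8 and 61.1 on the ENDO infarction arrays. The groups did not overlap, the difference was 23.5 ± 2.89 points (SE, adjusted p = 0.000149), and the sham difference was 6.41. Cd38 (an enzyme that degrades NAD) ranked 93.8, 93.5, 92.8, 93.9 and 94.2 against 75.6, 59.7, 67.6, 60.3 and 50.9. It differed by 30.8 ± 3.87 points (SE, adjusted p = 0.00017) after infarction and by 37.9 after sham operation, so that the TCRM arrays were the higher ones under both operations. Enpp4, a phosphodiesterase that acts on dinucleotides, was lower, at 72.0, 73.0, 73.9, 73.0 and 76.3 on the TCRM and 88.5, 89.7, 85.6, 89.6 and 80.1 on the ENDO infarction arrays. Every TCRM array was below every ENDO array, with a difference of -13.1 ± 1.90 points (SE, adjusted p = 0.000398), where the sham difference was 0.13.

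Both receptors for interleukin 1 were higher. Il1r1 (the signalling receptor) ranked 82.2, 75.7, 53.7, 68.0 and 63.5 on the TCRM and 37.0, 36.4, 29.7, 33.2 and 32.9 on the ENDO infarction arrays. TCRM array 3 was the lowest of a widely spread group that still lay above the ENDO arrays, and the difference was 34.8 ± 4.71 points (SE, adjusted p = 0.000262). Il1r2 (the decoy receptor) was higher by 24.3 ± 5.86 points (SE, adjusted p = 0.00656), and the sham differences of the pair were 6.78 and 3.59. They are 2 of 3 named genes of 31 on the receptor list, the third being Cxcr3. All 3 are rises of the TCRM table, and 28.9% of all tested clusters were higher.

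**Figure D2:**
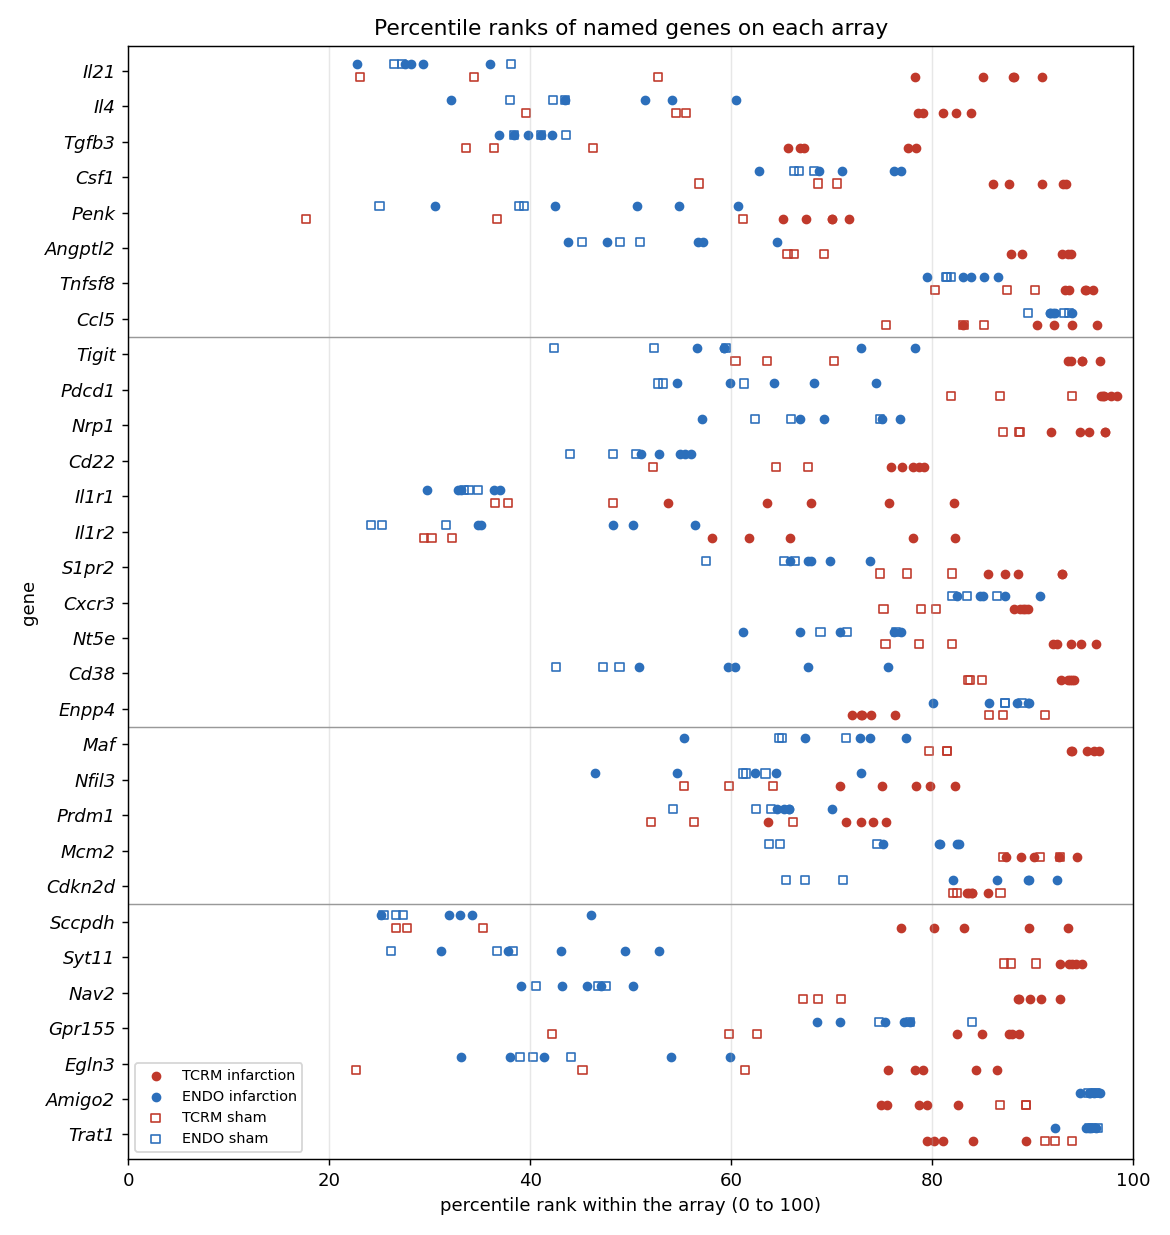
Percentile rank within the array (horizontal axis, 0 to 100) of 31 named genes, with 1 point per array. Filled circles are the 5 TCRM (red) and 5 ENDO (blue) infarction arrays, and open squares the 3 TCRM and 3 ENDO sham arrays. Il21, Tgfb3 and Sccpdh stand apart on the filled red points alone, whereas Pdcd1, Cd38 and Syt11 are high on both red sets.

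The 12 named genes with the highest positive differences, Il21 among them, lay between 39.0 and 72.8 points. Sccpdh (a protein named for its likeness to saccharopine dehydrogenase) ranked 93.6, 89.6, 80.2, 83.1 and 76.9 on the TCRM and 46.1, 31.9, 34.2, 25.2 and 33.0 on the ENDO infarction arrays. It was low in ENDO cells under both operations and in TCRM sham cells, where it ranked 27.7, 26.7 and 35.4. The difference was 50.6 ± 4.24 points (SE, adjusted p = 1.62e-05) after infarction and 3.45 after sham operation.

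Syt11 (a synaptotagmin, of a family that acts in vesicle traffic) ranked 94.9, 94.3, 93.9, 93.6 and 92.7 on the TCRM and 49.4, 52.8, 37.8, 43.1 and 31.2 on the ENDO infarction arrays. It was high on every TCRM array, sham included, and the difference of 51.0 ± 3.66 points (SE, adjusted p = 7.21e-06) stood beside 54.7 after sham operation. Nav2 (neuron navigator 2, a cytoskeletal protein) ranked 90.8, 92.7, 88.7, 88.5 and 89.7 against 50.3, 47.1, 45.7, 39.1 and 43.1, a difference of 45.0 ± 1.99 points (SE, adjusted p = 6.54e-07), with 24.0 after sham operation. Its TCRM arrays were all within 5 points of each other and nearly 40 points above the ENDO arrays.

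Of the same 12, Lpar3 (a receptor for lysophosphatidic acid) was higher by 47.1 ± 3.54, Chst11 (a chondroitin sulfotransferase) by 46.3 ± 2.77, Vat1l by 46.2 ± 3.76 and Farp1 (a guanine nucleotide exchange factor) by 43.0 ± 2.12 points (SE). Phactr2 (a regulator of actin and protein phosphatase 1) was higher by 41.8 ± 2.48 and Abhd4 (a lipid hydrolase) by 39.0 ± 3.92 points (SE). The sham differences of these 6, between 15.1 and 27.6 points, were all smaller and in the same direction. Hist2h2ac, a histone H2A gene, had the highest value, 72.8 ± 2.14 points (SE, adjusted p = 4.34e-08), with ENDO infarction ranks of 5.18 to 13.4 and TCRM ranks of 75.9 to 86.3. Its sham difference was 51.1 points. In the test of the change between operations given below it did not pass (21.7 ± 7.24 points, SE, adjusted p = 0.369). Histone genes of this family are nearly identical in sequence, so which of them the signal belongs to is uncertain. The ENDO infarction means of Hist2h2ac (7.97), Vat1l (18.9), Il21 (28.8) and Chst11 (29.4) lay under 30, the bound set on the mean of all 10 arrays. These genes were tested only because of their TCRM ranks, and ranks as low as those in ENDO cells may carry no signal.

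Egln3 (a hydroxylase that marks hypoxia-inducible factor for decay) ranked 84.3, 86.4, 78.3, 75.7 and 79.1 on the TCRM and 59.9, 38.0, 54.0, 33.1 and 41.4 on the ENDO infarction arrays. All TCRM arrays lay above all ENDO arrays, with a difference of 35.5 ± 5.01 points (SE, adjusted p = 0.000335) and 1.94 after sham operation, where 1 TCRM array at 22.6 and 1 at 61.4 enclosed the ENDO ranks. It was the 1 named gene of 25 on the hypoxia and glycolysis list. All 3 named genes of 27 on the lipid and sterol list were higher, with Osbpl3 (an oxysterol-binding protein family member) at 26.7 ± 3.27 points (SE) beside Sccpdh and Gpr155. All 3 are rises of the TCRM table, and the list was chosen with earlier results of these data known. Their direction is therefore not independent evidence, and 28.9% of all tested clusters were higher.

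**Figure D3:**
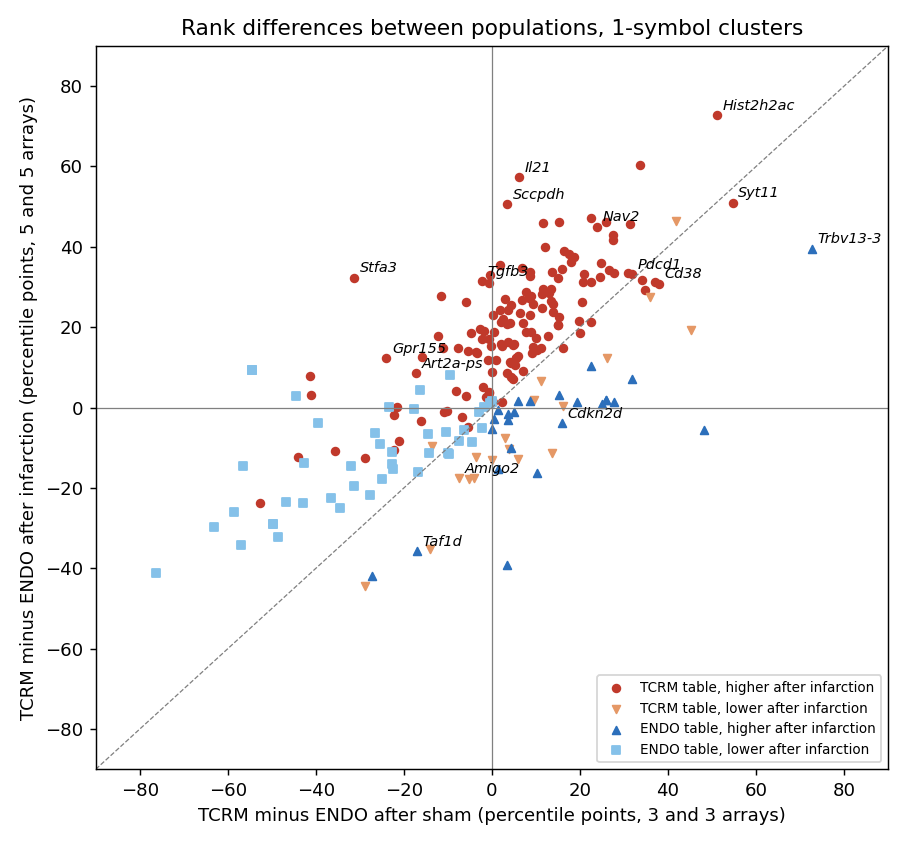
TCRM minus ENDO difference in mean percentile rank after infarction (vertical, 5 and 5 arrays) against that after sham operation (horizontal, 3 and 3 arrays) for the 234 tested clusters with 1 symbol, marked by the authors' table and direction. On the dashed line both are equal: Syt11 and Cd38 lie just below it, whereas Il21 and Sccpdh lie near 0 on the horizontal axis and above 50 on the vertical.

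The 143 clusters that the TCRM table lists as higher after infarction were divided by their sham difference. They had been selected as lower on the TCRM sham than on the TCRM infarction arrays, which favours small sham differences. Of all 9492 clusters called by at least 10 points, 81.6% differed by at least 10 points the same way after sham operation. The split therefore does not set apart a class that depends on infarction. Of the 110 that were called at least 10 points higher after infarction, 50 were also at least 10 points higher on the TCRM sham arrays, 56 were within 10 points there and 4 were at least 10 points lower. The first set holds Pdcd1, Tigit, Maf, Cd38, Nrp1 and Syt11, and the second Il21, Il4, Tgfb3, Csf1, Nt5e, Il1r1 and Egln3. The cut at 10 points runs through a continuous range, and Maf (13.8), Tigit (13.3) and Il4 (8.66) lie close to it. A further 11 were at least 10 points lower after sham operation and not at least 10 points apart with a call after infarction, among them Ccl5, Timp2 and Art2a-ps.

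Most named genes of effector and memory cells did not pass after infarction, and most of them rank near the top of the arrays, where points do not bound the difference in signal. Of 31 listed genes 8 were named, 2 were higher, none was lower and 6 did not pass, with a median of 2.14 points after infarction and -3.94 after sham operation. All 8 are rises of the TCRM table, which favours the lower sham median, and 28.9% of all tested clusters were higher. Cxcr3 (the chemokine receptor of Th1 and effector cells) ranked 89.5, 89.1, 89.2, 88.7 and 88.2 on the TCRM and 87.2, 82.5, 84.8, 85.1 and 90.7 on the ENDO infarction arrays. ENDO array 5 exceeded every TCRM array and the other 4 lay below, with a difference of 2.89 ± 1.45 points (SE, 95% interval -0.38 to 6.15, adjusted p = 0.122). Without that array it was 4.05 points with an adjusted p of 0.008, and it also passed with array weights (4.49 points, adjusted p = 0.00279) and on log2 signal centred on array medians (0.82 log2, adjusted p = 0.000156).

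Ccl5 ranked 93.9, 96.3, 83.1, 90.5 and 92.2 on the TCRM and 92.0, 91.7, 92.2, 91.7 and 94.0 on the ENDO infarction arrays, which overlap, with a 95% interval of the difference of -6.06 to 3.80. Together with Cxcr3 it makes up the 2 named genes of the Th1 list, and neither passed. Prdm1 (Blimp-1, a repressor that acts in effector and plasma cells) differed by 5.24 ± 2.20 points (SE, adjusted p = 0.0698), and by 7.20 points (adjusted p = 0.00369) without TCRM array 5 and 6.18 points (adjusted p = 0.0452) without ENDO array 1. The 2 that were higher were Anxa2 (annexin 2, by 11.5 ± 2.11 points, SE) and Nkg7.

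The remaining members, named here after their values were seen, were S100a4 and S100a6 (calcium-binding proteins) and Lgals1 (galectin 1). Their differences after infarction were -3.43 ± 1.73, -1.91 ± 3.72 and 1.39 ± 0.88 points (SE), and none passed. After sham operation S100a4 and S100a6 were lower in TCRM cells by more, with differences of -16.1 and -22.2 points. S100a6 ranked 64.2, 68.8 and 78.1 there against 93.6, 92.3 and 91.7 in ENDO cells, and 5 of the 8 members had a sham difference below 0. All 8 had been selected as lower on the TCRM sham than on the TCRM infarction arrays, which favours sham differences below 0.

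The Th2 list held 3 named genes of 14 and the Th17 list 2 of 15, all higher. Each is a rise of the TCRM table, so their direction is not independent evidence, and 28.9% of all tested clusters were higher. Nfil3 (a transcription factor of several lymphocyte lineages), on the Th2 list beside Il4 and Maf, ranked 82.2, 79.8, 75.02, 78.4 and 70.8 on the TCRM and 62.3, 54.6, 64.5, 46.5 and 72.9 on the ENDO infarction arrays. It was the 1 called named gene whose groups overlapped, through ENDO array 5, with a difference of 17.1 ± 4.55 points (SE, adjusted p = 0.0106). Il21 and Il1r1 were the Th17 pair.

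**Figure D4:**
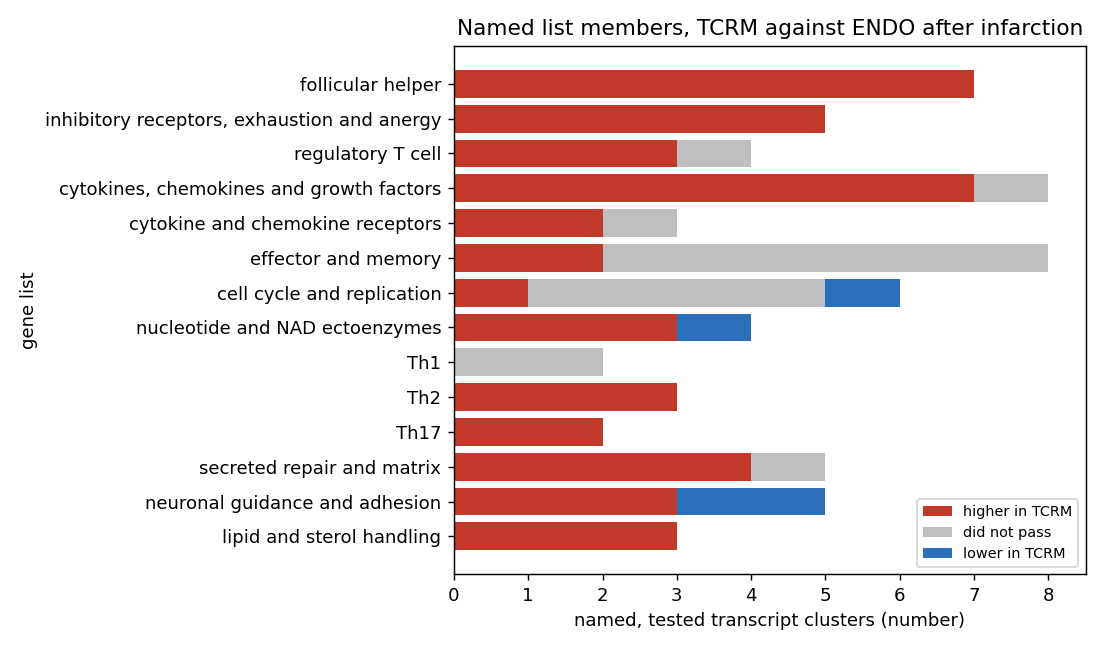
Number of named and tested clusters (horizontal axis) in each gene list with at least 2 of them, by the test of TCRM against ENDO infarction arrays: higher in TCRM (red), did not pass (grey) and lower in TCRM (blue). All 7 follicular helper members were higher, and 6 of 8 effector and memory members did not pass. The members of both lists are rises of the TCRM table, and 28.9% of all tested clusters were higher. Most effector and memory members rank near the top of the arrays, where points do not bound the difference in signal. The 6 clusters of the cell cycle list include Cks2 2 times.

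Fewer named genes ranked lower in TCRM cells, as most symbols come from rises of the TCRM table. The 10 that passed were named for passing without overlap, so neither is a result about them. Over all tested clusters 24.4% were lower and 43.3% did not overlap in either direction. Differences of at least 30 points that passed were more often lower (3.34%) than higher (1.87%). Amigo2 (a leucine-rich adhesion protein) ranked 75.5, 74.9, 78.7, 79.5 and 82.6 on the TCRM and 96.7, 95.7, 96.1, 95.6 and 94.7 on the ENDO infarction arrays. ENDO ranks were near the top of each array and the TCRM ranks well below, with a difference of -17.5 ± 1.48 points (SE, adjusted p = 1.70e-05) and -7.50 after sham operation. Trat1 (an adaptor that associates with the T cell receptor) ranked 79.5, 80.2, 89.3, 81.1 and 84.1 against 95.6, 95.8, 96.3, 95.3 and 92.2, a difference of -12.2 ± 1.91 points (SE, adjusted p = 0.000599), with -3.53 after sham operation. TCRM array 3 came nearest to the ENDO arrays and did not reach them.

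Taf1d (a factor of ribosomal RNA transcription) had the greatest negative value among the named genes, -35.8 ± 5.93 points (SE, adjusted p = 0.000838), with TCRM ranks of 25.1, 38.6, 52.1, 45.4 and 47.3 and ENDO ranks of 69.1, 85.5, 87.5, 80.0 and 65.4. Its arrays spread widely within both groups and did not overlap. Olfr1454, an olfactory receptor gene, differed by -35.3 ± 6.95 points (SE) at low ranks of 5.65 to 20.6 in TCRM cells, and its family has many similar members, so its identity is uncertain. Dcdc2b (a doublecortin domain protein) was lower by -17.7 ± 3.61 and Ddx26b by -10.6 ± 1.61 points (SE), with sham differences of -24.9 and -22.2. Trim34a (a tripartite motif protein induced by interferon) differed by -5.67 ± 1.30, Dnajc9 (a histone chaperone) by -2.97 ± 0.88 and Nsmce2 (a SUMO ligase of the SMC5/6 complex) by -2.88 ± 0.91 points (SE). Dnajc9 did not pass with the array number as a block (adjusted p = 0.0654). On log2 signal centred on array medians its difference was 0.12 log2, where the median of all tested clusters was shifted by 0.17 log2. Nsmce2 no longer passed without TCRM array 3, 4 or 5, with adjusted p of 0.0523, 0.0529 and 0.057.

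Genes of cell division did not move one way. Of the 5 named genes on that list Mcm2 was higher, Dnajc9 was lower and 3 did not pass, with a median of 1.59 points after infarction and 5.89 after sham operation when the 2 identical Cks2 clusters are counted once. The Dnajc9 call was lost with the array number as a block. On centred log2 signal its difference turned to 0.12 and did not pass (adjusted p = 0.521), where the median of all tested clusters was shifted by 0.17. Mcm2 (a subunit of the replicative helicase) ranked 94.4, 88.8, 90.1, 92.6 and 87.3 on the TCRM and 80.8, 82.6, 80.7, 82.4 and 75.1 on the ENDO infarction arrays. It was high in both and apart, by 10.3 ± 1.84 points (SE, adjusted p = 0.00128), while the sham difference was 22.5. Cdkn2d (an inhibitor of the cyclin D kinases) ranked 85.5, 84.0, 83.9, 83.4 and 83.7 against 92.4, 89.7, 89.5, 86.5 and 82.0. The groups overlapped through ENDO array 5, and the difference of -3.90 ± 1.79 points (SE, adjusted p = 0.0926) became -5.39 (adjusted p = 0.0047) without that array.

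Among well-expressed named genes the smallest differences belonged to Snrpd3 (a core protein of the spliceosome, -0.50 ± 0.69 points, SE), Timp2, Cwc15 (a spliceosome factor, -1.04 ± 0.75) and Ccl5. Snrpd3 ranked 97.7 to 98.5 on TCRM and 98.4 to 98.9 on ENDO infarction arrays. Close to the top of an array a rank can move little, so small differences in points there do not bound the difference in signal. Ppp1ca (a catalytic subunit of protein phosphatase 1) is a case in point: its groups did not overlap at 98.7 to 99.1 and 97.0 to 98.1, but the difference of 1.59 ± 0.70 points (SE, adjusted p = 0.0823) did not pass.

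Whether the population difference after infarction exceeded that after sham operation was tested directly as the difference of the 2 differences over all 16 arrays. Of 29739 clusters, 33 passed (0.111%), 17 of them with the higher value after infarction (0.0572%), and 2696 had an unadjusted p under 0.05. Il21 passed with 51.2 ± 7.58 points (SE, adjusted p = 0.0342), Sccpdh with 47.2 ± 6.12 (adjusted p = 0.0194), Tgfb3 with 33.7 ± 4.77 (adjusted p = 0.0334) and Nav2 with 21.1 ± 3.22 (adjusted p = 0.0342). The TCRM table lists these genes, and Gpr155, Art2a-ps and Stfa3 below, as rises after infarction on the same arrays. The ENDO table lists Cdkn2d as a rise and Cks2 as a fall. Such selection is on part of the change tested, so a pass by these named genes is not independent evidence. Il4, Csf1, Nt5e, Il1r1 and Egln3 did not pass, with adjusted p between 0.162 and 0.322, although their sham differences were small, and neither did Pdcd1 (adjusted p = 0.98), Cd38 (0.776) or Syt11 (0.918).

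Gpr155 and Art2a-ps also passed, with TCRM ranks above ENDO ranks after infarction and more than 10 points below them after sham operation. Gpr155 (a lysosomal membrane protein that senses cholesterol) ranked 87.7, 88.6, 84.9, 82.5 and 87.9 on the TCRM and 77.8, 77.2, 75.3, 70.9 and 68.6 on the ENDO infarction arrays, but 59.8, 42.2 and 62.6 against 84.0, 77.8 and 74.7 on the sham arrays. TCRM cells were thus the higher population after infarction, by 12.4 ± 2.07 points (SE), and the lower one after sham operation, by a difference of -24.0, and the test of the change gave 36.3 ± 5.57 (SE, adjusted p = 0.0342). Art2a-ps, a pseudogene of the ADP-ribosyltransferases, went from -17.2 after sham operation to 8.51 after infarction (25.7 ± 3.72, SE, adjusted p = 0.0342), and its similarity to functional relatives makes its identity uncertain. Stfa3 (a stefin, of a family of near-identical cysteine protease inhibitors), named after its values were seen, went from -31.2 to 32.3 points, a change of 63.6 ± 7.23 (SE, adjusted p = 0.00868), with the same uncertainty.

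Cdkn2d moved the other way, from 15.8 points after sham operation to -3.90 after infarction (-19.7 ± 2.91, SE, adjusted p = 0.0342). Clusters named for Cks2 (a partner of cyclin-dependent kinases) changed by 63.8 ± 10.5 points (SE, adjusted p = 0.0383), but 2 clusters with that symbol and 1 of another symbol held identical values, so the identity is uncertain. The number of calls rested on single arrays. Without TCRM infarction array 1, 2, 4 or 5 it was 6, 3, 8 or 7, and without ENDO infarction array 3, 4 or 5 it was 3, 18 or 61. Without TCRM sham array 1, 2 or 3 it was 20, 12 or 9, and without ENDO sham array 1, 2 or 3 it was 6, 81 or 19. Of the 16 arrays left out in turn, Sccpdh kept its call with 13, Tgfb3 with 11, Il21, Gpr155 and Art2a-ps with 9 each, Nav2 and Cdkn2d with 7 each and Cks2 with 4. The Il21 value stayed between 44.4 and 59.2 points throughout. Both populations were sorted from the same mice, and with the array number as a block none of these 8 genes passed (adjusted p between 0.0655 and 0.245).

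The ENDO infarction arrays differed in how far they lay from the TCRM arrays. The correlation of ranks with the mean of the TCRM infarction arrays was 0.924, 0.880, 0.899, 0.847 and 0.778 for ENDO arrays 1 to 5, and 0.979 to 0.990 for each TCRM array with the mean of the others. ENDO array 1 was thus nearest and array 5 farthest. Among the 116 clusters with 1 symbol that were called at least 10 points higher in TCRM cells, ENDO array 1 was the nearest of the 5 to the TCRM mean for 67 (57.8%) and array 5 the farthest for 59 (50.9%), and over all 5144 such clusters for 51.4% and 48.3%. Maf, Nt5e, Csf1, Cd38 and Pdcd1 each had their lowest ENDO rank on array 5.

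A receptor segment outside the naming rule, chosen after its values were seen, ran in the same order. Trbv13-3, a variable segment of the T cell receptor beta chain, ranked between 99.4 and 99.6 on the 5 TCRM infarction arrays and 79.2, 67.6, 69.3, 46.1 and 37.5 on ENDO infarction arrays 1 to 5. On the sham arrays it ranked 99.2 to 99.4 in TCRM and 21.9, 39.3 and 18.3 in ENDO cells. The array with the higher correlation was the one with the higher rank of this segment throughout the ENDO infarction arrays. Whether any of this order comes from TCRM RNA on the ENDO arrays was not tested. Another segment chosen in this way, Trdv5, ranked 88.0 to 89.5 on the TCRM and 25.6 to 32.6 on the ENDO infarction arrays.

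**Figure D5:**
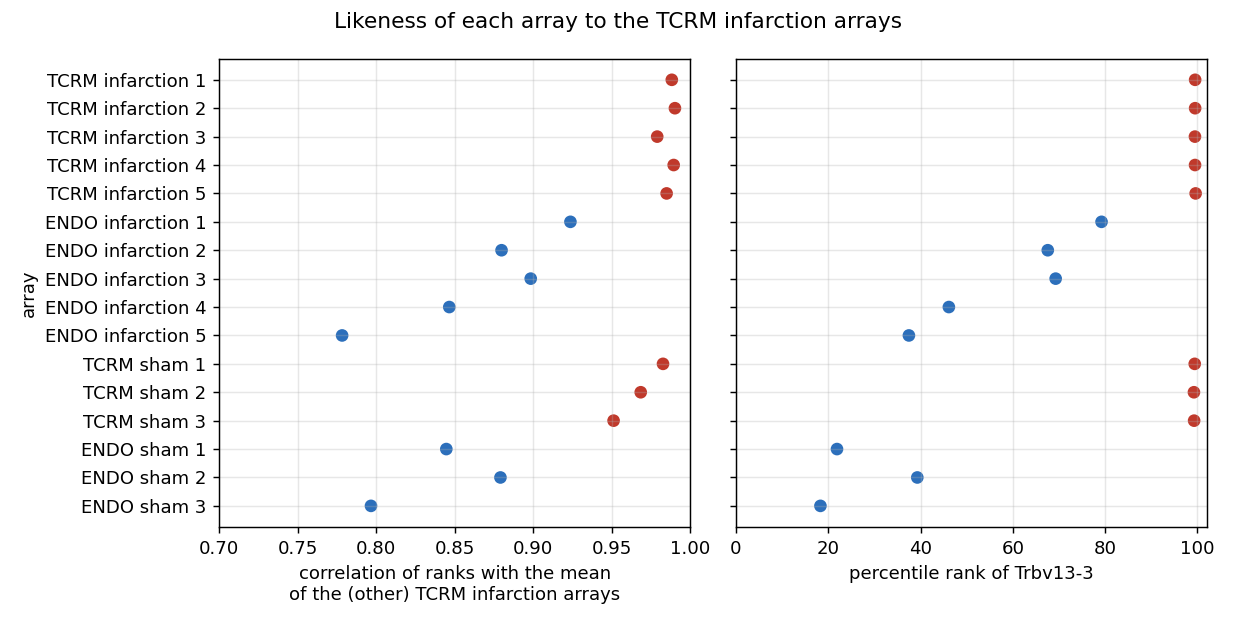
Correlation of each array's ranks with the mean of the TCRM infarction arrays, itself left out (left, unitless), and percentile rank of Trbv13-3 (right), with 1 point per array, TCRM in red and ENDO in blue. The ENDO infarction arrays fall from 0.924 to 0.778 on the left and from 79.2 to 37.5 on the right, in the same order.

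Without ENDO infarction arrays 1 and 5, the nearest and the farthest, a choice made after seeing the data, 17508 clusters passed and 9842 of them by at least 10 points. The main differences held their size: 59.4 points for Il21, 37.8 for Il4, 33.3 for Pdcd1, 31.8 for Tigit, 31.1 for Cd38, 23.9 for Maf, 18.2 for Csf1 and -17.6 for Amigo2. Cxcr3 then passed at 4.83 points (adjusted p = 0.00206). Without array 5 of both populations, the arrays whose labels disagree, 16109 clusters passed and 9043 of them by at least 10 points.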

How the data were processed

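Whole transcript array signal was measured in sorted CD4+ T cells on 16 arrays. The deposited value table holds log2 signal. Per the submitters' processing notes the tools were Affymetrix Expression Console and Transcriptome Analysis Console, and neither versions nor the way probes were summarised were found in these sources. The populations were treated as normalized separately. The authors also deposited tables of infarction against sham for each population (at least 2-fold, p-value under 0.05), with decimal commas, and these were used for symbols and for the direction of their averages only. Of 269 distinct symbols 207 were found in the RefSeq gene table.

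Each array's signals were turned into percentile ranks over 41345 clusters. Clusters with a mean rank under 30 over the 10 infarction arrays were left out (11606). Ranks were fitted by lmFit and eBayes of limma 3.58.1 (R 4.3.3), 2-sided, with Benjamini-Hochberg adjustment over all tested clusters, and the fit was tested on simulated data. Summaries used pandas 2.3.3 and figures matplotlib 3.10.9, under python 3.11.15. Of the tested clusters, 1109 had values identical to another.

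Named were up to 12 genes per direction with the largest differences that passed without overlap, up to 4 members of each of 22 gene lists by lowest p, genes of interest where they had a symbol, and the 4 smallest differences at a mean rank of 70 or more. Gene models, clones, receptor segments and RNA genes (112 clusters) were counted but not named by this rule, which left 56 symbols, of which 1 is not reported here. Of 393 listed genes 43 were named. The members, lists and genes of interest were chosen with earlier results of these data known. Alternatives covered the filter, scale, spread, thresholds, labels, the array number as a block and each array left out. The design gives 5 infarcted and 3 sham-operated animals, but that each array is 1 animal is not stated, so p-values measure the spread between these samples.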

Additional observations from a re-analysis of the deposited data

Results flagged for a closer look

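The difference between populations changed between sham operation and infarction for 8 named genes by the test of that change, in percentile points: Cks2 (63.82 for each of 2 identical clusters), Il21 (51.21), Sccpdh (47.18), Gpr155 (36.31), Tgfb3 (33.74), Art2a-ps (25.69), Nav2 (21.09) and Cdkn2d (-19.72). Over all tested clusters 33 of 29739 passed (0.111%). The named genes come from the authors' tables of infarction against sham on these arrays, so a larger share among them follows in part from selection. With the array number as a block none of the 8 passed (adjusted p between 0.0655 and 0.245).

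In 7 of 114 groups of 5 infarction arrays, 1 array lay far from the other 4, with 3 of 57 from TCRM and 4 of 57 from ENDO arrays. By chance about 1 group in 20 would do so. The gap to the nearest array divided by the range was 0.8387 for Trim34a on TCRM array 1 (rank 88.5 against 92.5 to 93.2), 0.7508 for Dnajc9 on the same array (91.6 against 88.7 to 89.4) and 0.7417 for Cdkn2d, again there (85.5 against 83.4 to 84.0). In ENDO cells it was 0.7869 for Ccl5 (94.0 against 91.7 to 92.2), 0.7714 for Trat1 (92.3 against 95.4 to 96.3) and 0.7389 for Mcm2 (75.1 against 80.7 to 82.6), all on array 5. For Prdm1 on ENDO array 1 it was 0.7783 (70.03 against 64.6 to 65.8).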

How the results depend on the processing

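Of 57 named clusters 47 passed, and 44 of these passed under each of 28 settings. Dnajc9 and Nsmce2 lost the call under several and Nfil3 at an adjusted p under 0.01. On deposited log2 signal centred on array medians the direction turned for Timp2 (0.43, adjusted p = 0.0455), Dnajc9 (0.12) and Nsmce2 (0.0816). Of the 10 that did not pass, 7 passed under at least 1 setting. The count of clusters that passed lay between 14101 and 17132 with 1 array left out. With centred log2 signal it was 16954, 11091 higher and 5863 lower (65.4% higher against 54.2%), where the median of all clusters was shifted by 0.17 log2. With at least 10 points it was 5961 with a filter at mean rank 50, 14470 at 5 points, 3516 at 20 points and 8949 to 10132 with 1 array left out. For the change between operations it was 73 after quantile normalization of 16 arrays and 3 to 81 with 1 array left out. The populations were sorted from the same mice, but no label ties a number to an animal. Deviations of same-numbered arrays correlated between -0.068 and 0.065, none of 5 best with its own number. The number as a replicate block gave 14344 clusters, 9179 by at least 10 points, and 1 for the change between operations (2487 at unadjusted p under 0.05). With the block Dnajc9 (adjusted p = 0.0654) and Nsmce2 (0.0854) did not pass and Prdm1 did (0.0453). No measure of signal over background was used, so low ranks may carry no signal.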
